A study of Mus musculus with 4 samples.

Results

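Pericytes and vascular smooth muscle cells of the mouse hindlimb were studied at E18.5, the last of 4 embryonic stages. Cells were taken as members when the count of Rgs5, a regulator of G-protein signalling and a marker of these cells, was at least 3 UMIs (unique molecular identifiers, each standing for 1 captured RNA molecule). Cdh5, Epcam and Fcer1g, markers of endothelium, epithelium and myeloid or mast cells, had to be at 0. Cells also needed 200 genes or more and no more than 10% mitochondrial UMIs. Of 1904 such E18.5 cells, 320 were members, which is 16.8% (95% Clopper-Pearson interval 15.2% to 18.6%). The whole series held 9958 such cells. The rule read the counts of the cells themselves, so that Rgs5 and the 3 genes at 0 are no finding, and levels of other genes in the same cells are given as a description.

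The series holds 1 library each of C57BL/6 embryonic hindlimb at E18.5 and at 3 earlier stages (E15.5, E13.5 and E11.5), and the labels name no genetic change or treatment in any of them. Per the labels' protocols, each library pooled the limbs of 6-7 pups of 1 litter, which were digested with collagenase and pronase, stored frozen, thawed and depleted of dead cells before 10x Genomics 3' capture. Embryos cannot be told apart within a pool, and stage cannot be told apart from litter and library. With 1 library per stage there is no replicate and no test, and every interval covers counting error only.

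Pericytes sit on capillaries inside the basement membrane they share with endothelium, and smooth muscle cells wrap arteries, arterioles and larger veins. Both are recruited by PDGF-B from endothelium acting on the receptor PDGFRB, and NOTCH3 signalling, triggered by Jagged ligands on neighbouring cells, maintains them. Both can carry the ATP-sensitive potassium channel formed by KCNJ8 and ABCC9, and smooth muscle cells carry the contractile set of ACTA2, MYH11, calponin and transgelin. Mural cells can also release chemokines such as CXCL1 and CCL2, which draw neutrophils and monocytes out of vessels and are well-known targets of NF-kB.

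In the E18.5 library the 320 cells differed among themselves along 2 sums of UMIs, Myh11 with Acta2 and Cxcl1 with Ccl2. A total of 143 cells (44.7%, 39.2% to 50.3%) had at least 10 UMIs of Myh11 and Acta2 together, and are called contractile-high. A total of 132 cells (41.2%, 35.8% to 46.9%) had at least 10 UMIs of Cxcl1 and Ccl2 together, and are called chemokine-high. The RefSeq sequence before the start site is shown for Cxcl1, which is part of the second sum, and for Cxcl2 and Il6, cytokine genes whose levels differed along it. It is given on GRCm38.p6, from 250 to 31 bases before the start. The windows are chr5:90890995-90891214 for Cxcl1, chr5:90903649-90903868 for Cxcl2 and chr5:30012864-30013083 for Il6, all on the plus strand of chromosome 5. Capitals mark matches to the NF-kB consensus, searched on both strands.

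Cxcl1: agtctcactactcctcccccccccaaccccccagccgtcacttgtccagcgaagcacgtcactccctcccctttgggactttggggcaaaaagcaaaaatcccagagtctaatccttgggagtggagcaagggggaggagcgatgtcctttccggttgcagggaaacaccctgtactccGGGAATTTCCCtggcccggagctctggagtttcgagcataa

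Cxcl2: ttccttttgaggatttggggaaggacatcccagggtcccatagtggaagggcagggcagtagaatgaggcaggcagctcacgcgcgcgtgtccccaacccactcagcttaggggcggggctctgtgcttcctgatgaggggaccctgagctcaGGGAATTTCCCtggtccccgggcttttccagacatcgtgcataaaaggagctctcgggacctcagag

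Il6: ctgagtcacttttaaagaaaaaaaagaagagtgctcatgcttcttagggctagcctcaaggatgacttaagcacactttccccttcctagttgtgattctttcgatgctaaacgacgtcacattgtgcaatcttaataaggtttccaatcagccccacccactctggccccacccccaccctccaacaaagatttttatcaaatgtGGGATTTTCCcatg

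Cxcl1 and Cxcl2 carried the same 11 bases, GGGAATTTCCC, made of 2 overlapping matches that begin 71 and 97 bases before the start. Il6 carried 1 match, GGGATTTTCC, beginning 44 bases before it. The consensus was found in 1133 of 32851 windows of this length (3.45%), which is 1064 of 27025 genes (3.94%), and in 5 of the 16 genes of the chemokine and cytokine list with a sequence in the table (Csf1, Cxcl1, Cxcl10, Cxcl2 and Il6). It was also found in 2 of 22 genes of the contractile list (Flna and Myl9) and 2 of 15 of the pericyte list (Des and Steap4). In the contractile list 3 of 22 genes (Myl6, Myl9 and Vcl) held a CArG box, the site of serum response factor, against 1.30% of all windows, 1.44% of all genes and 0 of the 16 chemokine genes. Ccl2, Ccl7, Actg2, Myh11 and Tagln had no entry in the table. These matches are a description of letters, not of factor binding.

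The E18.5 library held 1997 barcodes and 15080964 UMIs, and members had a median of 7796 UMIs per cell (2259 to 26836) against 6722 in the other 1584 cells. Libraries shared 8 to 15 barcodes per pair. Scrublet, a doublet caller, marked 9 cells (0.473%) of this library, 3 of them members, which is too few to count as a working call, so doublets are treated as present. Rgs5 lies on chromosome 1 (169655501 to 169695813, GRCm38, protein-coding), and the members held 5739 of its 6328 UMIs in the library (90.7%). Per member the Rgs5 count had a median of 15 UMIs and a maximum of 75. Of 339 cells with at least 3 Rgs5 UMIs, 17 were left out for a Fcer1g UMI, 1 for Cdh5 and 1 for Epcam. Just outside the rule, 15 cells with exactly 2 Rgs5 UMIs had Abcc9 at 43.0 CPM (UMIs of a gene per 1000000 UMIs of these cells) and Acta2 at 705 CPM. Just inside it, 10 cells with exactly 3 had Abcc9 at 109 CPM and Acta2 at 6877 CPM. In both sets 3 cells held most of the Acta2 UMIs, 59 of 82 outside the rule and 327 of 380 inside it.

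The label was checked on the markers given with it. Abcc9, Kcnj8 or Acta2 had a UMI in 315 of the 320 cells, all of these 3 genes in 133, and none in 5. Of 13 pericyte markers without Rgs5, the median member had 9, and 316 members had at least 3. Asking also for 0 UMIs of Pecam1, Ptprc, Tyrobp, Krt5, Krt14, Krt15, Myod1, Myog and Sox10, markers of other cell types, left 168 members, 8.82% of the kept cells. Single UMIs of abundant keratinocyte genes were spread over the group, with 77 Krt14 UMIs and no member at 5 or more. That median was 2 in 70 Pdgfra fibroblasts (cells with at least 2 Pdgfra UMIs, fewer than 3 of Rgs5 and 0 of Cdh5, Epcam and Fcer1g), 1 in 29 Cdh5 endothelial cells and 1 in 117 Epcam cells. The name therefore rests on several markers and not on Rgs5 alone. Epcam cells, which should lack most of these genes, gave the background, to which free RNA and doublets can both add. Mcam, which is among the 13 markers, had a UMI in 50 of the 117 Epcam cells and in 250 members. After thinning each cell to 3000 UMIs, Abcc9 was found in 39.5% of members (33.9% to 45.2%) and in 0.870% of Epcam cells, with unthinned shares of 71.6% and 1.71%. The median depth of the Epcam cells was 7880 UMIs. Acta2 was found in 68.8% of thinned members and 6.96% of thinned Epcam cells. Counts per member ran from 0 to 10 for Abcc9 (median 1, with 91 cells at 0) and from 0 to 525 for Acta2 (median 5, with 66 cells at 0). Abcc9 was thus low in nearly every cell, while Acta2 was spread over a wide range.

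**Figure D1:**
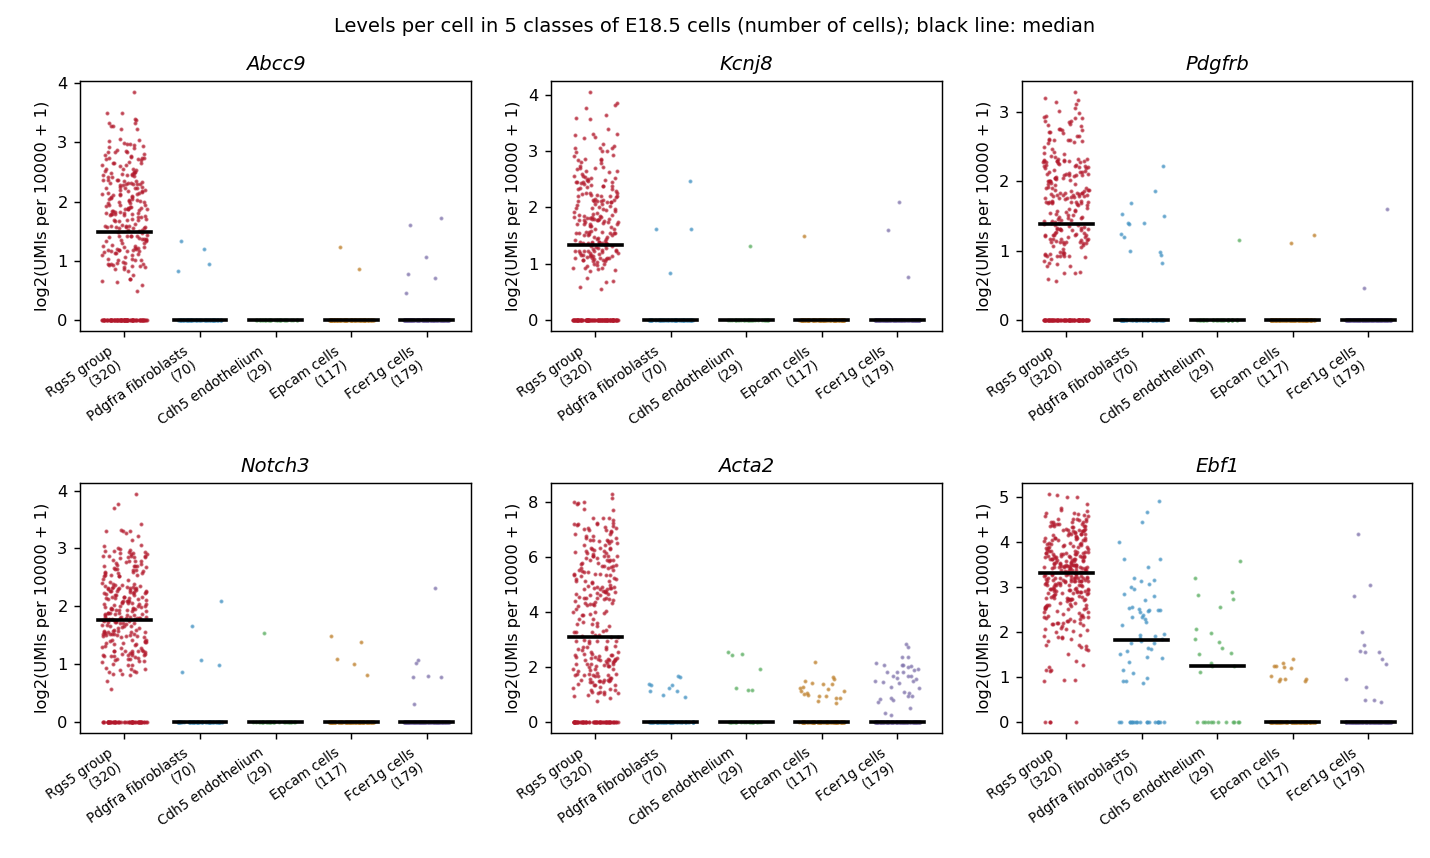
Each point is 1 cell of the E18.5 library, placed by class on the x axis (number of cells in brackets) and by log2 of UMIs per 10000 plus 1 on the y axis, for 6 genes; points are spread sideways and the black line is the median. The median of Abcc9, Kcnj8, Pdgfrb, Notch3 and Acta2 lies above 0 in the Rgs5 group and at 0 in the 4 other classes, while Ebf1 is also above 0 in fibroblasts and endothelium.

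The genes of the pericyte list were compared with the rest of the library. UMIs were summed over cells and scaled to CPM. A size rule called a gene higher or lower when the CPM ratio was at least 2 in either direction, its 95% interval lay wholly on that side of 1 and at least 20 UMIs were seen in both together. The intervals are not adjusted for the number of genes. Counts for a list are out of all its genes, including those under 20 UMIs, which could not be called. Medians of a list, and shares over all genes, cover only genes with at least 20 UMIs. By this rule 9.01% of 12861 genes were higher in the group and 14.9% were lower. Of the 18 pericyte genes without Rgs5, 17 were higher and 0 lower. Their median log2 ratio was 3.64, against -0.12 over all genes tested. The cells were chosen on a gene of this list, so nothing is read from that count.

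Vtn, which encodes the adhesion protein vitronectin, stood at 191 CPM in the group and 4.22 CPM in the other cells, 45.3 times higher (33.9 to 61.7). It was seen in 183 members, and the cell with most Vtn held 2.73% of its UMIs. Higd1b, a mitochondrial protein gene used as a pericyte marker, was 39.6 times higher (31.4 to 50.3). The channel genes lie side by side on chromosome 6, Kcnj8 at 142564837 to 142571614 and Abcc9 at 142587862 to 142702315. Abcc9 stood at 225 CPM in members and 7.53 CPM elsewhere, and Kcnj8 at 224 and 9.36 CPM. Members thus held 86.9% of the library's Abcc9 UMIs and 84.2% of its Kcnj8 UMIs. Cspg4, which encodes the NG2 proteoglycan, was 2.14 times higher (1.81 to 2.53), and members held 32.2% of its UMIs. Ifitm1 was the pericyte gene not called, at a ratio of 1.75 (1.58 to 1.94).

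Receptor and second-messenger genes of vessel tone were high in the same cells. In the list of channels and receptors 21 of 30 genes were higher and 3 lower. Gucy1a3 and Gucy1b3, the subunits of the nitric oxide receptor, were 27.6 (21.1 to 36.6) and 17.7 (14.3 to 22.0) times higher. Ednra, the endothelin receptor of mural cells, was 7.05 times higher and Agtr1a, an angiotensin receptor, 9.43 times. Rgs2, a relative of Rgs5, was 2.92 times lower (2.44 to 3.53), and the endothelin receptor gene Ednrb, from 5 UMIs, 4.00 times lower (1.65 to 12.6). In the contractile list 23 of 27 genes were higher and 1, Sorbs2, lower, a call lost after division by the ratio of the median gene. Myh11, smooth muscle myosin heavy chain, was 27.5 times higher (22.0 to 34.5) but was found in only 121 members. Myl9, the regulatory light chain, was found in 297 members and was 19.9 times higher (18.7 to 21.3).

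Some genes of the signals that assemble the vessel wall were also unequal between members and other cells. Over all genes tested 9.01% were higher and 14.9% lower. Pdgfrb, the receptor for PDGF-B, stood at 198 CPM in the group and 12.7 CPM elsewhere, 15.6 times higher (13.01 to 18.8). Pdgfra, the related receptor of fibroblasts, was 5.20 times lower (3.06 to 9.62). In the list of PDGF, angiopoietin and VEGF genes 7 of 23 were higher and 4 lower, with a median log2 ratio of 0.21. Of 15 Notch genes 8 were higher and 1 lower. Notch3 was 11.7 times higher (10.2 to 13.5), and the Notch targets Nrarp and Heyl 12.1 and 10.2 times. Angpt2, an angiopoietin that loosens the contact of mural cells with endothelium, was 13.4 times higher (10.2 to 17.8), and Angpt1, its counterpart, 6.55 times (4.12 to 10.54) from 48 UMIs. In the list of TGF-beta and BMP genes 6 of 30 were higher, among them the ligand gene Tgfb3 at 4.62 times, and 5 were lower. As a whole that list was near the other cells, with a median log2 ratio of -0.006. Its summed level was 1925 CPM in members and 1944 CPM elsewhere.

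Basement membrane genes were more often higher than lower, while interstitial matrix genes went both ways. Of 20 basement membrane genes 11 were higher and 2 lower. Of 31 interstitial matrix genes 5 were higher, 8 lower and 18 not called. The middle basement membrane gene lay at a log2 ratio of 1.12 and the middle interstitial gene at 0.002, against -0.12 over all genes tested. The summed interstitial level was 9216 CPM in members and 11288 CPM elsewhere. Single genes of both kinds stood out. Col4a1, a chain of the collagen of basement membranes, stood at 1240 CPM in the group and 162 CPM elsewhere, 7.66 times higher (7.24 to 8.11). Itga1, a collagen receptor chain, was 13.96 times higher (10.8 to 18.2). Col1a1, a chain of the fibrillar collagen of bone and skin, was 2.76 times lower (2.65 to 2.89), and Dcn, a small proteoglycan, 3.45 times lower. Sparcl1 and Postn, secreted proteins of the matrix, were 9.72 and 2.26 times higher.

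Of 38 transcription factor genes known from mural cells or their precursors, 17 were higher and 5 lower. Foxf1, a forkhead factor of lung and gut mesenchyme, was 57.3 times higher (26.7 to 147) from 89 UMIs in 52 members. Nr2f1, an orphan nuclear receptor, was 23.8 times higher (16.2 to 35.9). Tbx2 was 20.5 times higher and Foxs1 20.7 times. Ebf1, an early factor of pericyte commitment, was found in 316 members and was 7.09 times higher (6.66 to 7.55). Phox2a, a homeobox gene known from autonomic neurons, was 34.7 times higher (23.0 to 54.3) and was found in 126 members. The cell cycle lists were near the other cells: of 18 S phase genes 0 were higher and 1 lower, and of 18 G2/M genes 0 were called in either direction.

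Chemokine genes were high in many members. Cxcl1 counts per member ran from 0 to 150 UMIs (median 3.5, with 77 cells at 0) and Ccl2 counts from 0 to 116 (median 1, with 128 cells at 0). Of 24 chemokine and cytokine genes 12 were higher and 3 lower. Cxcl1 (chromosome 5, 90891241 to 90893115) stood at 1593 CPM in the group and 68.4 CPM elsewhere, 23.3 times higher (21.6 to 25.1). Ccl2 (chromosome 11, 82035571 to 82037453) was 15.5 times higher (14.3 to 16.9), Il6 19.0 times (13.7 to 27.1), and Il34, a ligand of the macrophage receptor CSF1R, 25.3 times (17.4 to 37.8). Members held 83.8% of the library's Cxcl1 UMIs, 77.5% of its Ccl2 UMIs and 81.1% of those of Ccl11, the eosinophil chemokine. Cxcl2 differed from these: members held 19.0% of its UMIs and its ratio was 1.06 (0.987 to 1.13). Fcer1g cells carried much of it, with a Cxcl2 UMI in 69.9% of thinned cells (62.3% to 76.9%) against 31.6% of members. Cxcl1 was found in 64.5% of thinned members and 12.2% of thinned Epcam cells. Ccl2 was less particular to members. It was found in 44.4% of thinned members, 22.4% of thinned Pdgfra fibroblasts and 22.7% of thinned Fcer1g cells.

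Members were then set beside the neighbouring mesenchymal and vascular classes. Against the 70 Pdgfra fibroblasts, 9.86% of 8705 genes were higher and 7.55% lower. Interstitial matrix genes were lower in 20 of 31 cases and higher in 1. Basement membrane genes were higher in 8 of 20 cases and lower in 1. Their summed level was near equal, at 6668 CPM in members and 6849 CPM in fibroblasts. Col1a1 stood at 810 CPM in members and 12792 CPM in fibroblasts, 15.8 times lower (15.0 to 16.6), and Col3a1 was 8.57 times lower (8.25 to 8.90). Acta2 stood at 3472 CPM against 21.7 CPM, 160 times higher (89.2 to 320), and Tagln was 71.2 times higher (34.5 to 177). Ebf1 was only 2.29 times higher (1.99 to 2.65) than in fibroblasts. Egfl6 and Penk, an EGF-like matrix protein and an enkephalin precursor, were 138 and 86.1 times lower in members. Cxcl1 was 9.59 times higher (7.73 to 12.1) than in fibroblasts, where 1 cell held 28.6% of its UMIs. Chemokine and cytokine genes were higher in 8 of 24 cases (13 reached 20 UMIs) and lower in 1.

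Against the 29 Cdh5 endothelial cells, 7.74% of 8420 genes were higher and 9.20% lower. Dlk1, an imprinted membrane protein of embryonic mesenchyme, stood at 4149 CPM in members and 73.7 CPM in endothelium, 56.3 times higher (33.6 to 103). It was found in 318 of the 320 members. Chemokine and cytokine genes were higher in 11 of 24 cases and lower in 0, with Ccl2 44.1 times higher (17.2 to 162). The G2/M genes were higher in 9 of 18 cases, and interstitial matrix genes higher in 16 of 31 and lower in 7. Esam, an adhesion molecule often used as an endothelial marker, stood at 232 CPM in members and 231 CPM in endothelium, a ratio of 1.00 (0.739 to 1.40). Against the rest of the library Esam was 20.6 times higher (17.1 to 25.03).

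Markers of other cell types were looked for in the members. Of the 7 endothelial markers without Cdh5, 4 were lower, 1 was not called and 2, Esam and Emcn, were higher than in other cells. Their summed level was 283 CPM in members and 162 CPM elsewhere. Cldn5 had 2 UMIs, Kdr 1 and Tie1 0 in all members. All 7 macrophage and neutrophil markers without Fcer1g were lower, with S100a8 139 times lower (109 to 180), and all 6 keratinocyte and all 6 cartilage markers were lower. Fibroblast markers were lower in 7 of 8 cases, at a summed 400 CPM in members and 1488 CPM elsewhere. Of 9 skeletal muscle markers 7 were lower, but 4 members had at least 5 Myog UMIs each and held 103 of the 116 Myog UMIs of the group. Another member, of 13763 UMIs, held 952 of 969 Spp1 UMIs and 124 of 125 Mmp13 UMIs, with Rgs5 at 16 UMIs and Abcc9, Kcnj8 and Acta2 at 0. Mmp13, a collagenase gene of hypertrophic cartilage and bone, was called 35.2 times higher in the group only through that cell.

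**Figure D2:**
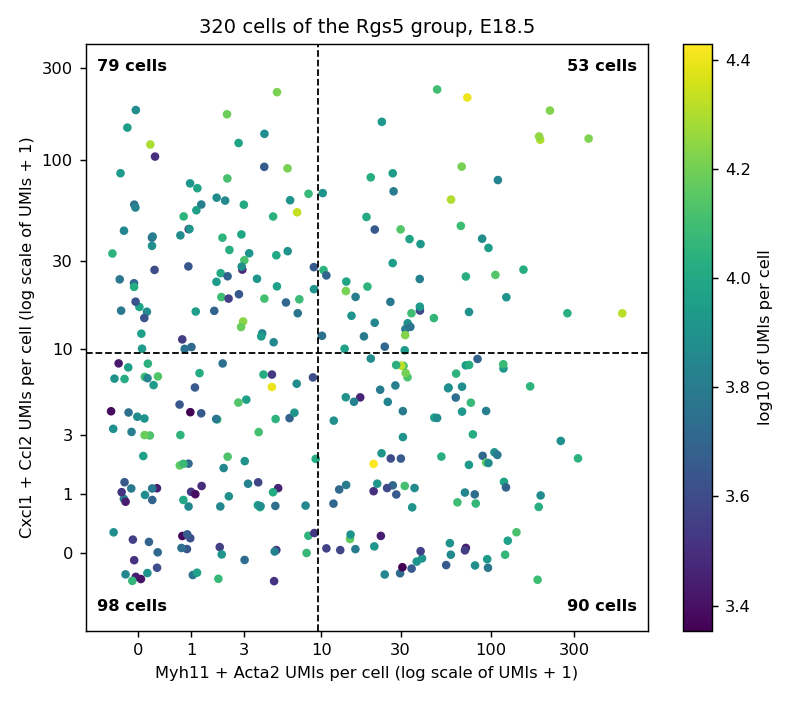
Each point is 1 of the 320 members, with the UMIs of Myh11 plus Acta2 on the x axis and of Cxcl1 plus Ccl2 on the y axis (both log scales of UMIs plus 1, points moved by up to 0.3 UMIs), coloured by log10 of UMIs per cell. Dashed lines lie between 9 and 10 UMIs, which leaves 53 cells with both sums high, 90 with the contractile sum alone, 79 with the chemokine sum alone and 98 with neither.

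Cells were spread along both sums, as the scatter of both per cell shows. The contractile sum had a median of 6 UMIs, from 0 in 61 cells to 563. The chemokine sum also had a median of 6, from 0 in 54 cells to 232. Chemokine-high cells made up 37.1% (29.1% to 45.5%) of the contractile-high cells and 44.6% (37.2% to 52.3%) of the contractile-low cells, and these intervals overlap. Median depth was 8052 UMIs in contractile-high and 7514 in contractile-low cells, and 8617 in chemokine-high and 7397 in the other cells. Thresholds on raw UMIs favour deeper cells. Of cells just below the contractile threshold (8 or 9 UMIs, 9 cells) 1 had a Tagln UMI, and of those just above (10 or 11 UMIs, 5 cells) 2 had one.

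Contractile-high cells carried the wider smooth muscle program. Myh11 and Acta2 made the split and were left out. Of the other 25 contractile genes 20 were higher and 0 lower, and the list's median log2 ratio was 1.75 against 0.07 over all genes tested. Of these 8109 genes 4.08% were higher and 1.97% lower, 6.06% in either direction. Dividing by the ratio of the median gene gave 275 genes higher and 213 lower in place of 331 and 160, and 19 contractile genes higher. Actg2, the enteric smooth muscle actin, stood at 750 CPM in contractile-high and 5.75 CPM in contractile-low cells, 130 times higher (65.9 to 303). Cnn1, calponin, had 240 UMIs in 43 contractile-high cells and 2 UMIs in the rest of the group, 129 times higher (35.4 to 1075). Tagln, transgelin, was 44.2 times higher (34.4 to 57.6), and after thinning was found in 69.1% (60.7% to 76.6%) of contractile-high and 12.1% (7.56% to 18.1%) of contractile-low cells.

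The graded members of the list were present on both sides. Myl9 stood at 3115 CPM and 651 CPM, 4.79 times higher (4.45 to 5.15), and had a UMI in 143 of 143 contractile-high and 154 of 177 contractile-low cells. Tpm1 and Tpm2, tropomyosins, were 3.48 and 3.96 times higher, and Mylk, myosin light chain kinase, 3.37 times. Mustn1, a small nuclear protein of muscle and skeleton, was 21.2 times higher (11.6 to 43.1), and Lmod1, which nucleates actin filaments, 14.9 times (6.98 to 38.2). Beyond the list, Tnmd, tenomodulin of tendon, was 31.1 times higher (13.01 to 97.1) from 144 UMIs in 51 contractile-high cells, while the tendon factor gene Scx had 2 UMIs in the whole group. Tgfb3, Id4 and the VEGF receptor gene Flt1 were 3.05, 3.02 and 4.35 times higher. In the interstitial matrix list 4 of 31 genes were higher, 0 were lower and the median log2 ratio was 0.02. The higher ones were Lox, Mfap5, Eln, from 24 UMIs in all at 3.24 times (1.23 to 9.96), and Loxl1, a crosslinking enzyme of elastin, at 7.28 times. The summed fibroblast markers stood at 469 CPM in contractile-high and 336 CPM in contractile-low cells, and their part in these genes was not tested.

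Pericyte genes moved less between these sides. Of 18, 1 (Colec11) was higher in contractile-high cells and 3 (Steap4, Art3 and Higd1b) were lower, with a median log2 ratio of -0.38. Steap4, a metalloreductase, stood at 27.1 CPM in contractile-high and 132 CPM in contractile-low cells, 4.85 times lower (3.36 to 7.17). Higd1b was 2.14 times lower (1.82 to 2.51). Abcc9 and Kcnj8 were 1.77 (1.496 to 2.11) and 1.55 (1.31 to 1.83) times lower, short of the size rule. Notch3 was at a ratio of 1.15 (0.993 to 1.34). In the list of channels and receptors the median log2 ratio was -0.49 and the summed level 1391 CPM in contractile-high and 1569 CPM in contractile-low cells. Of its 30 genes 20 reached 20 UMIs, and 0 were lower and 3 higher. The higher ones were Itpr1, an intracellular calcium channel, at 2.79 times, Pde3a, a cyclic nucleotide phosphodiesterase, at 2.45 times and Rgs16, a relative of Rgs5, at 2.51 times. Of the 38 transcription factor genes 0 were higher and 2 lower. Cygb, cytoglobin, and Stc1, a secreted glycoprotein, were 3.46 and 4.20 times lower. Spp1 was called 149 times lower, through the single cell named above, which held 98.9% of the Spp1 UMIs of the contractile-low side.

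**Figure D3:**
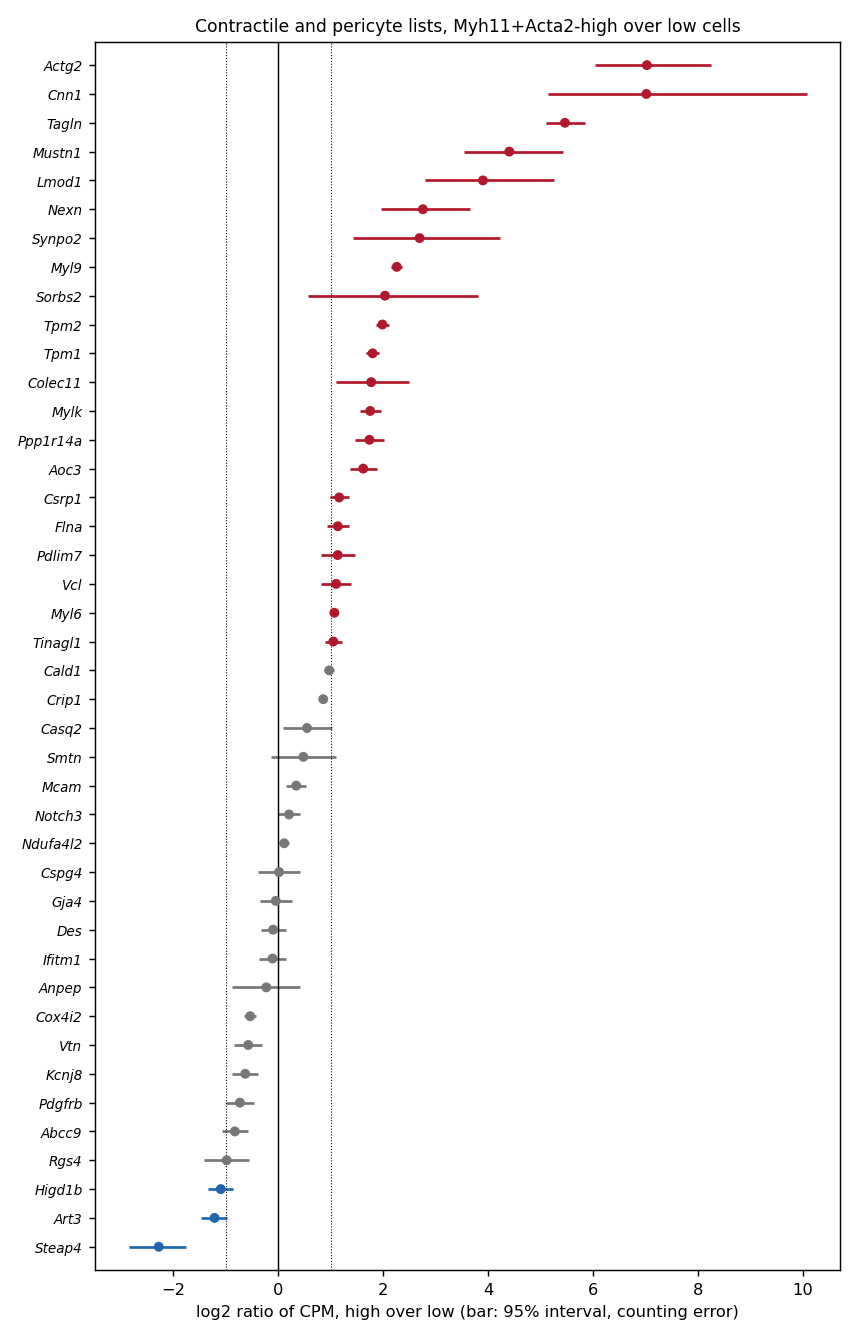
Each row is a gene of the contractile or pericyte list with at least 20 UMIs, with the log2 ratio of CPM in the 143 contractile-high over the 177 contractile-low cells on the x axis; bars are 95% intervals of counting error, red is higher and blue lower by the size rule, and dotted lines mark a ratio of 2. Actg2, Cnn1 and Tagln lie at the top, most pericyte genes lie left of 0, and Steap4 is lowest.

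Chemokine-high cells carried further cytokine genes. Cxcl1 and Ccl2 made the split and were left out. Of the other 22 genes of the list 5 were higher and 0 lower, and the list's median log2 ratio was 0.88 against -0.12 over all genes tested. Of these 8109 genes 2.89% were higher and 4.60% lower, 7.49% in either direction. Dividing by the ratio of the median gene, a shift of -0.12 on the log2 scale, gave 344 genes higher and 255 lower in place of 234 and 373. Cxcl2, a neutrophil chemokine whose window above holds the same 11 bases as that of Cxcl1, stood at 766 CPM in chemokine-high and 68.3 CPM in the other cells, 11.2 times higher (9.11 to 13.9). It had a UMI in 96 of 132 chemokine-high cells and 49 of 188 others. Il6 was 6.64 times higher (4.42 to 10.3), Ccl7, a monocyte chemokine, 5.66 times (4.32 to 7.52), Tslp 3.91 times and Cxcl10, which attracts T cells, 3.07 times. Ccl11, Cxcl12 and Il34 were not called, with ratios of 1.31 (1.11 to 1.55), 1.12 (0.952 to 1.32) and 1.19 (0.881 to 1.60).

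Genes of the NF-kB and acute response list were higher in 8 of 35 cases and lower in 0. Cebpb, a transcription factor of the acute phase, stood at 1544 CPM and 421 CPM, 3.67 times higher (3.35 to 4.03), and had a UMI in 131 of 132 chemokine-high cells. Icam1, the adhesion molecule that holds leukocytes, was 3.76 times higher (2.98 to 4.79). The NF-kB inhibitors Nfkbia and Tnfaip3 were 2.24 (2.07 to 2.42) and 3.83 (2.38 to 6.41) times higher. Ptx3, a pentraxin, was 4.34 times higher and Tnfaip6, a hyaluronan-binding protein, 2.72 times. Rela, Nfkb1 and Nfkb2, which encode the factor itself, were not called.

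Stress genes differed in part between these cells. Of 41 immediate early and heat shock genes 7 were higher and 0 lower, and their summed level was 20630 CPM in chemokine-high and 15678 CPM in the other cells. Fos and Jun were not called, at ratios of 0.847 (0.770 to 0.931) and 1.05 (0.9696 to 1.14), while the heat shock gene Dnajb1 was 2.43 times higher (2.06 to 2.87). Hmox1, heme oxygenase, was 5.41 times higher (4.06 to 7.32), with 21.7% of its chemokine-high UMIs in 1 cell. Fosl1 and Nr4a2, further immediate early genes, were 8.23 and 2.48 times higher. The part of such a stress response in the chemokine levels was not tested.

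**Figure D4:**
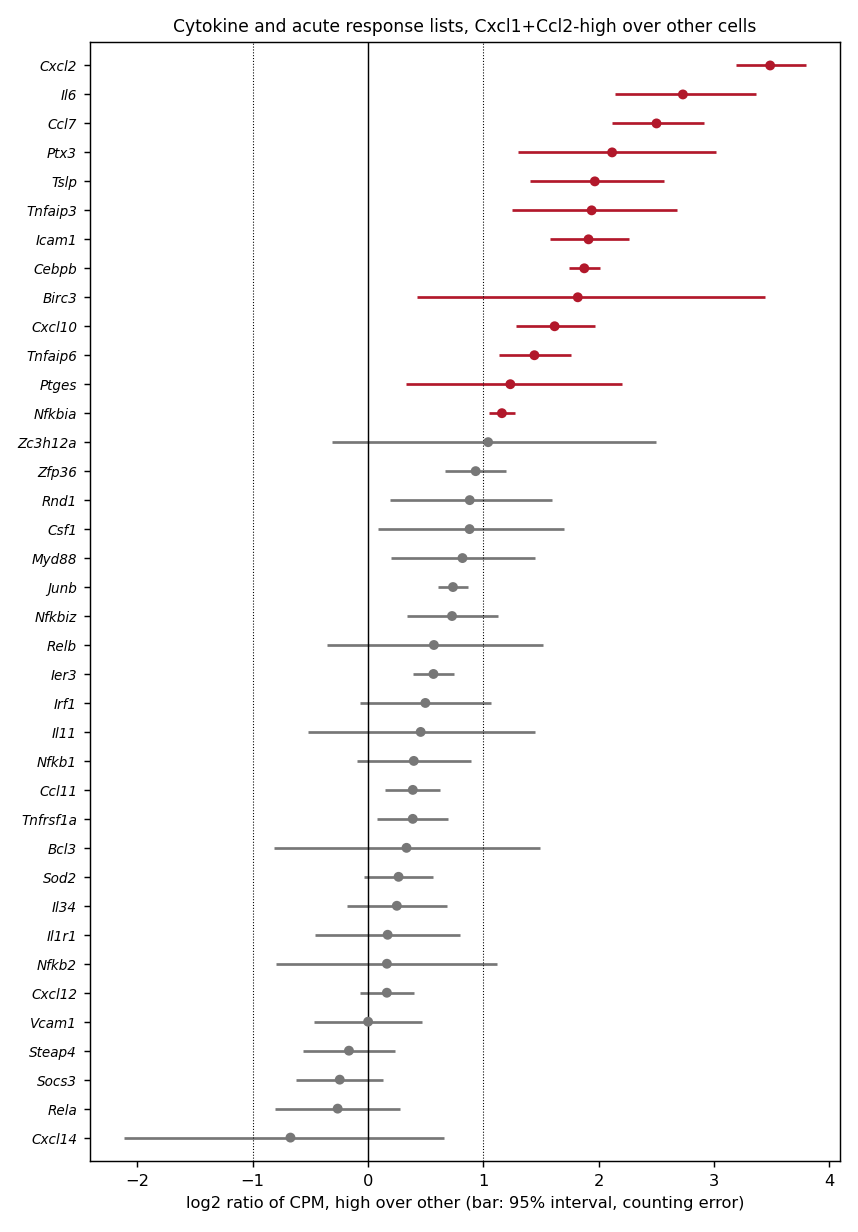
Each row is a gene of the chemokine and cytokine or the NF-kB and acute response list with at least 20 UMIs, with the log2 ratio of CPM in the 132 chemokine-high over the 188 other cells on the x axis; bars are 95% intervals of counting error, red is higher by the size rule, and dotted lines mark a ratio of 2. Cxcl2, Il6 and Ccl7 lie at the top and no gene is lower by the rule.

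Genes of other lists differed too. Foxf1 was 6.30 times higher (3.53 to 12.1) in chemokine-high cells and Foxc2, a forkhead factor of vessel and limb mesenchyme, 4.37 times (2.99 to 6.54). Stc1 was 5.92 times higher (4.53 to 7.83). S1pr3, a sphingosine 1-phosphate receptor, was 2.49 times higher (2.07 to 2.998). Among Notch targets Nrarp was 2.01 times higher (1.74 to 2.32) and Heyl 2.01 times lower (1.52 to 2.67). Heyl was not called after division by the ratio of the median gene, while Nrarp was. Of 31 interstitial matrix genes 9 were lower and 0 higher, with Col1a1 2.23 times lower (2.03 to 2.46), Dcn 2.58 times (2.15 to 3.12) and Lox, a collagen crosslinking enzyme, 4.68 times (2.36 to 10.3). After division by the ratio of the median gene 8 of them were lower. Fibroblast markers were lower in 4 of 8 cases (3 after that division), at a summed 231 CPM against 543 CPM. Their part in the matrix genes was not tested. Myog was 15.6 times lower, with 110 UMIs in 11 of the other cells. Of the 116 Myog UMIs of the whole group, 103 lay in the 4 members with at least 5 each. Of 27 contractile genes 4 were lower and 0 higher, with Lmod1 3.57 times lower (2.17 to 6.14), while Acta2 and Myl9 were at ratios of 0.805 and 0.717.

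The group was also split by both sums. Tagln stood at 1751 CPM in the 53 cells with both sums high and 2187 CPM in the 90 cells with the contractile sum alone. It stood at 34.0 CPM in the 79 cells with the chemokine sum alone and at 55.9 CPM in the 98 with neither. Actg2, Cnn1, Myl9 and Lmod1 were likewise lower with both sums high than with the contractile sum alone. Actg2 stood at 613 and 853 CPM in these 2 subsets, and Lmod1 at 32.4 and 108 CPM. Cxcl2 stood at 771 CPM with both sums high and 761.8 CPM with the chemokine sum alone, and at 53.2 and 83.9 CPM in the contractile-only cells and in those with neither. Il6 followed the same order of levels, at 146, 114, 16.4 and 22.4 CPM. Stc1 was unlike them: it stood at 404 CPM in the cells with the chemokine sum alone, 106 CPM in those with both, 74.1 CPM in those with neither and 17.7 CPM in the contractile-only cells. Ccl11 had another pattern, with 396 and 290 CPM in the contractile-high subsets and 127 and 86.7 CPM in the contractile-low ones. Ccl11 was 3.15 times higher (2.61 to 3.83) in all contractile-high cells together.

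**Figure D5:**
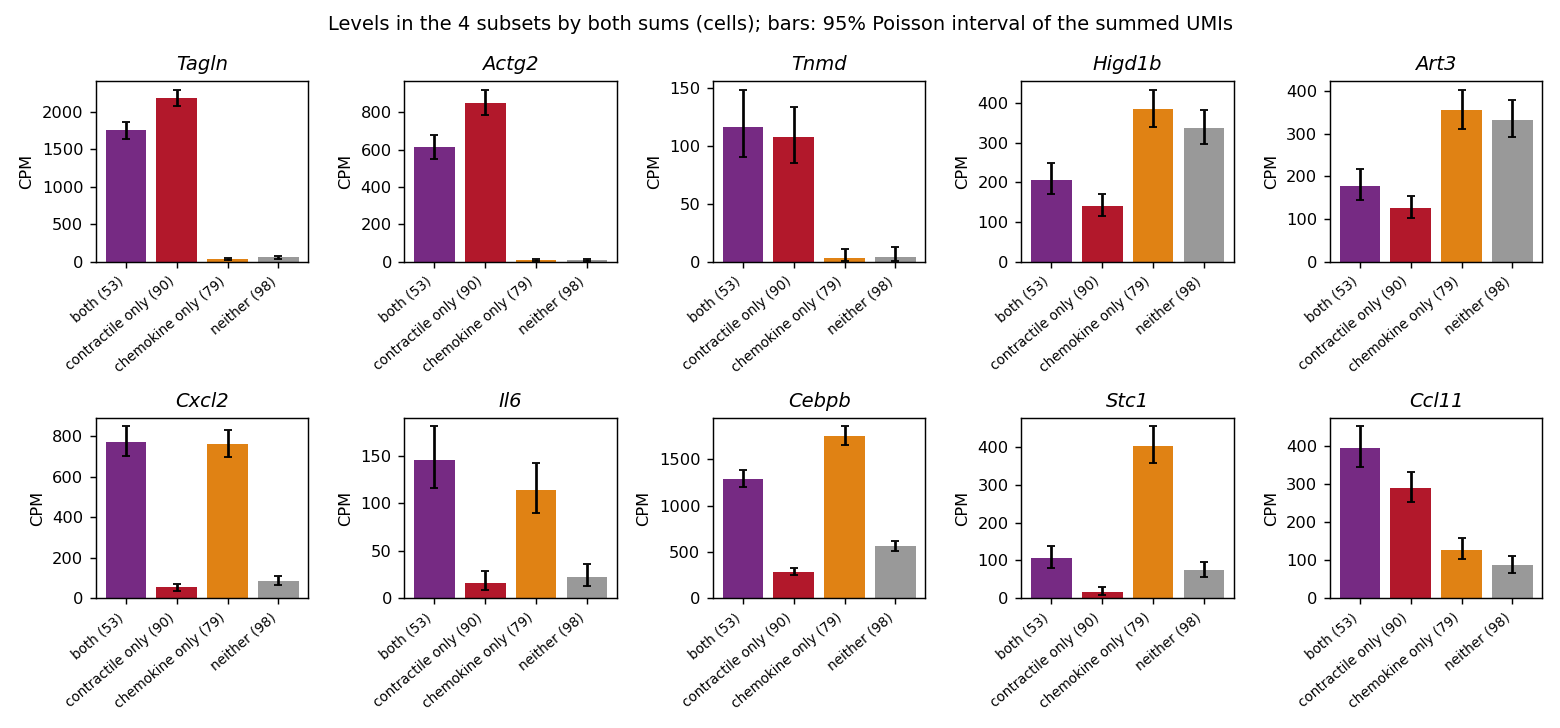
Each panel gives the CPM of 1 gene (y axis, from 0) in the 4 subsets of members with both sums high (53 cells), the contractile sum alone (90), the chemokine sum alone (79) and neither (98); error bars are 95% Poisson intervals of the summed UMIs. Tagln, Actg2 and Tnmd are high in both contractile-high subsets, Cxcl2 and Il6 in both chemokine-high subsets, and Stc1 is highest with the chemokine sum alone.

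The same rule found 0 of 2640 cells at E11.5, which allows a share of up to 0.114% (3 counts of the total), 4 of 2816 at E13.5 (0.142%, 0.0387% to 0.363%) and 14 of 2598 at E15.5 (0.539%, 0.295% to 0.902%). Rgs5 stood at 1.04, 2.16, 8.51 and 429 CPM over all kept cells, in order of stage. Pdgfrb was less unequal, at 22.0, 8.28, 12.1 and 46.3 CPM, and Cspg4, which cartilage also makes, was higher at E13.5 (79.3 CPM) and E15.5 (94.7 CPM) than at E18.5 (45.6 CPM). With 14 cells at E15.5, under the 20 set for a ratio, levels are given side by side.

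At E15.5 10 of the 14 cells had at least 10 UMIs of Myh11 and Acta2. Of the same cells 0 of 14 had at least 10 of Cxcl1 and Ccl2, which allows a share of up to 21.4% (3 counts of the total). Median depth was 10937 UMIs in the E15.5 cells and 7796 in the E18.5 members, and thresholds on raw UMIs favour deeper cells. Acta2 stood at 5222 CPM (4871 to 5591) in the E15.5 cells and 3472 CPM (3402 to 3544) in the E18.5 members. Cxcl1 stood at 12.7 CPM (1.54 to 45.8), from 2 UMIs, against 1593 CPM (1546 to 1641). Il6 and Cxcl2 had 0 UMIs at E15.5, against 69.4 and 389 CPM at E18.5. Ccl11 stood at 228 CPM (160 to 316) and 217 CPM (199 to 235), and Ebf1 at 1110 CPM (952 to 1288) and 947 CPM (910 to 984). Abcc9 stood at 57.1 CPM (26.1 to 108) and 225 CPM (207 to 244), Vtn at 12.7 CPM (1.54 to 45.8) and 191 CPM (175 to 209), and Pdgfrb at 76.1 CPM (39.3 to 133) and 198 CPM (181 to 215). Over all kept cells Cxcl1 stood at 4.00, 2.16, 2.99 and 345 CPM in order of stage, and Ccl2 at 1.30, 2.05, 2.66 and 217 CPM. These 14 cells are few, and their intervals leave out the variation between cells.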

How the data were processed

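Single-cell RNA was captured with 10x Genomics 3' version 2 chemistry, per the labels' protocols. The authors deposited whole-number UMI counts for each gene and barcode. The submitters' processing notes name Cell Ranger (version not stated), mm10 and Seurat 2.3.4. Each library is 1 sample, and nothing was tested. Members, gene lists and comparisons were chosen with earlier results of these data known.

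Counts were summed over cells and scaled to CPM. Ratios have exact conditional binomial 95% intervals, shares Clopper-Pearson intervals and levels Poisson intervals, in SciPy 1.17.1. Every UMI is treated as independent in these intervals, which makes them too narrow for genes held by few cells. The calling procedure was tested on summed counts simulated with counting error alone. Variation between cells was not simulated, so the test does not cover calls made by few cells. A first, stricter limit on calls among unchanged genes was exceeded and was then set to that of unadjusted 95% intervals, so some calls come from counting error alone. Scrublet came from scanpy 1.11.5. Cells were thinned to 3000 UMIs for shares, leaving out 16 of 320 members and 2 of 117 Epcam cells. Endothelial cells had at least 2 Cdh5 UMIs with Epcam and Fcer1g at 0, Epcam cells at least 2 Epcam UMIs and Fcer1g cells at least 3 Fcer1g UMIs. Genes were named, by rule, from the 24 lists, and as the 12 highest and 12 lowest called genes of each comparison with at least 50 UMIs on the higher side, ranked by the interval bound nearest 1. Positions come from GENCODE vM21 on GRCm38, which holds 32655 of 33456 gene IDs, and sequences from RefSeq. Counting did not state strand, so overlapping genes are not separated. Alternatives covered the Rgs5 and split thresholds, a stricter list of genes at 0, depth, scaling, UMI minimum and single cells.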

Additional observations from a re-analysis of the deposited data

How the results depend on the processing

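No paired analysis was possible because each stage is 1 library. Of 141 alternative values for sizes and counts of genes, 121 stayed within the spread or within 1.5 times, and 20 moved. For genes, these values compare how many were called, not which ones. With the stricter list of genes at 0, 957 genes were higher in the group than in the rest, with 859 of the 1159 reported among them. That list gave 154 genes lower in contractile-high cells, with 52 of the 160 reported among them. It gave 202 higher in chemokine-high cells, with 110 of the 234 reported among them. With the stricter list of genes at 0 the group was 8.82% of kept cells (168 cells). Under it 220 genes were higher in contractile-high cells, with 119 of the 331 reported among them. In chemokine-high cells 227 were lower, with 95 of the 373 reported among them. With at least 50 UMIs 407 genes were lower than in fibroblasts and 480 lower than in endothelium, 154 were higher and 65 lower in contractile-high cells, and 129 higher and 145 lower in chemokine-high cells. With the mean over cells of CPM 1475 genes were higher than in fibroblasts, 2019 higher and 1269 lower than in endothelium, 273 lower in contractile-high cells, and 362 higher and 601 lower in chemokine-high cells. The alternatives that follow were chosen after seeing the data. With each gene's top cell left out 459 genes were lower than in endothelium, 85 lower in contractile-high cells and 214 lower in chemokine-high cells. Within chemokine-high cells 171 genes were higher in contractile-high cells, and within contractile-low cells 192 were lower in chemokine-high cells. Fewer genes or cells enter several of these settings, and the cause of the others was not tested.

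Of the alternative log2 ratios of single genes named, 2073 stayed within the counting interval, 355 left it with no change of a call's sign and 7 changed sign. Mmp13 in the group over the rest, 5.14 as reported, was -3.73 with the stricter list, -1.71 without the 3% highest Scrublet scores and -1.83 without its top cell. Actc1, a cardiac actin gene, in chemokine-high cells was -2.48 as reported and 0.36 with the stricter list, and Spp1 there was -6.87 as reported and 6.67 with a threshold of 5. The member that held 952 of 969 Spp1 UMIs had a chemokine sum of 7 UMIs. The threshold of 5 therefore moved it to the high side. Hey2, a Notch target, was 1.43 as reported and -0.20 in contractile-high cells within the chemokine-high ones, and -1.09 as reported and 0.57 in chemokine-high cells within the contractile-low ones. Across all alternatives run, the contractile list had 15 to 21 of 25 genes higher in contractile-high cells, and the chemokine list 5 or 6 of 22 in chemokine-high cells.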
